A study of Mus musculus with 4 samples.

Results

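Hox genes encode homeodomain transcription factors that lie in 4 clusters, Hoxa, Hoxb, Hoxc and Hoxd, and give cells a record of their position along the body. The Hox genes of melanocytes grown from mouse tail skin were taken from the array as every probe set whose platform annotation gave a single symbol of these clusters with a number. A gene was represented by its probe set with the highest mean signal over 4 arrays. This gave 32 of the 12393 genes measured: 31 Hox protein genes of the 39 in the mouse, and Hoxa11os, an antisense RNA gene next to Hoxa11. The others had no probe set under their symbol alone and were not analysed here. Counts by cluster and paralog group below are over the 31 protein genes.

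Female mice gave tail skin, whose epidermal cells were kept in a serum-free medium that favours melanocytes over 6 to 8 weeks, until all cultures held visible melanin. Cells of 2 wild-type C57BL/6 mice were compared with cells of 2 mice of strain AhRtm1Bra, in which exon 2 of the aryl hydrocarbon receptor gene (Ahr) is deleted. AhR is a transcription factor switched on by dioxin-like and light-derived ligands. The series describes the animals as individuals, 2 in each group, and so small a number limits the precision. The cells are cultures of a whole tail epidermal suspension, not a sorted population.

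Genes of a cluster are ordered on the chromosome by paralog group, numbered from 1 at the end used in the head and hindbrain to 13 at the end used in the tail tip, digits and genital region. In the embryo they switch on in that order. Skin cells in culture are known to keep part of the Hox pattern of the site they came from. Whether any of these cells keeps a positional identity was not measured here. The arrays show which Hox transcripts gave signal.

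Before the signals, the regulatory sequence of the 5 Hox genes bright enough to be tested is shown. Each window holds 250 bases before and 50 after the annotated start, 5′ to 3′ on the gene's strand, from RefSeq on build GRCm38.p6. Capitals mark GCGTG or its reverse complement CACGC, the core that AhR is known to bind with its partner protein.
Hoxd8, chr2:74704365-74704664, + strand: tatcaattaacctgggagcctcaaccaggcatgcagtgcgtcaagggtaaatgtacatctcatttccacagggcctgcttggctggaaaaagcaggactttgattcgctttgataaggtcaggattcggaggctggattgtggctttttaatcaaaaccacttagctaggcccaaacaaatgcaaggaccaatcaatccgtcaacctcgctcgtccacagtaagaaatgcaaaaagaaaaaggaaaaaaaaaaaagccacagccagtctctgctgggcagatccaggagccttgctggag
Hoxd9, chr2:74697513-74697812, + strand: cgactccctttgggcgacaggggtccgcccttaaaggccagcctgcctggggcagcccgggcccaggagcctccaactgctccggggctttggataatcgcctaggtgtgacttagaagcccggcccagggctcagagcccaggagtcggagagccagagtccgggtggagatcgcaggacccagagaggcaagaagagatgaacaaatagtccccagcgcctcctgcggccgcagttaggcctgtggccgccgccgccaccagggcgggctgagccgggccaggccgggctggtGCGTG
Hoxd10, chr2:74691641-74691940, + strand: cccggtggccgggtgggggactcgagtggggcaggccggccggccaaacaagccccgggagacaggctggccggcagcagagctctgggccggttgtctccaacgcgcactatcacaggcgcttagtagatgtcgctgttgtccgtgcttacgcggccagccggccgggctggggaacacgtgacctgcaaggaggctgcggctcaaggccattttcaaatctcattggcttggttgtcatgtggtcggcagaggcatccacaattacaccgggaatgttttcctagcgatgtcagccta
Hoxa9, chr6:52227321-52227620, - strand: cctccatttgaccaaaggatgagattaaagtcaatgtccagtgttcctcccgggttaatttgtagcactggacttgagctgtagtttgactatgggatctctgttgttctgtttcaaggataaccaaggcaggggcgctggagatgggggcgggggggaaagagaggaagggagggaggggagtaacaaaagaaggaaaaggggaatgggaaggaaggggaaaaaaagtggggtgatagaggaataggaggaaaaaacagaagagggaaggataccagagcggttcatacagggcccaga
Hoxa10 outer start, chr6:52240805-52241104, - strand: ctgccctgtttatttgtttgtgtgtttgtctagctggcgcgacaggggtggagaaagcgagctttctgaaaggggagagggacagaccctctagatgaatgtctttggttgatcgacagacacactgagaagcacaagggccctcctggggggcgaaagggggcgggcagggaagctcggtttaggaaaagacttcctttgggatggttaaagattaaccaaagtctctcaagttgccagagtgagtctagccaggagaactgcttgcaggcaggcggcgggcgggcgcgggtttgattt
Hoxa10 inner start, chr6:52234890-52235189, - strand: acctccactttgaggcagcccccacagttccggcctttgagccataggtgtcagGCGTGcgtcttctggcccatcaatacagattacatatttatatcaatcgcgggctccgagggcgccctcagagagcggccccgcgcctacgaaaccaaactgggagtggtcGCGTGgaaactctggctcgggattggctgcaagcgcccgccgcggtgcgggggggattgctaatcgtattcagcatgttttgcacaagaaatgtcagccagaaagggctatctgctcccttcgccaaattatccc

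The core was found on either strand in Hoxd9, at position 46 after the start, and at -196 and -85 before the inner start of Hoxa10. It was absent from the windows of Hoxd8, Hoxd10, Hoxa9 and the outer start of Hoxa10. In all, 2 of these 6 windows (33.3%) held the core, against 32.4% of all 32851 promoter windows of the same length and 8 of the 21 windows (38.1%) that matched 19 of the 32 members. The share in the tested genes was thus near that of all promoters. The motif TGATNNAT, to which Hox proteins bind with Pbx partners, was in 0 of the 6 windows, in 3 of the 21 Hox windows (14.3%) and in 8.85% of all windows. Matches of the 2 motifs were counted separately and could overlap. The Hoxd9 window was 68.3% G and C with 20 CpG dinucleotides and the Hoxd8 window 46.7% with 6, so neighbouring genes differed in base composition. The median over the 21 Hox windows was 59.3% with 15 CpG, against 52.7% with 7 over all windows. A match describes letters in this window only.

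Signal above 76 on the mean of the wild-type arrays was used to call a Hox gene present, a level that 60% of all measured genes exceeded. Of the 31 Hox protein genes, 7 exceeded it. They were Hoxa9 and Hoxa10 of the Hoxa cluster, Hoxb4 and Hoxb6 of Hoxb, and Hoxd8, Hoxd9 and Hoxd10 of Hoxd, and 0 of the 6 measured Hoxc genes. Probe sets differ in how brightly they bind, so a signal is set against this threshold and against the same probe set on other arrays, not against another gene. Detection calls were not used here, and a gene under 76 may still be transcribed at a low level.

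**Figure D1:**
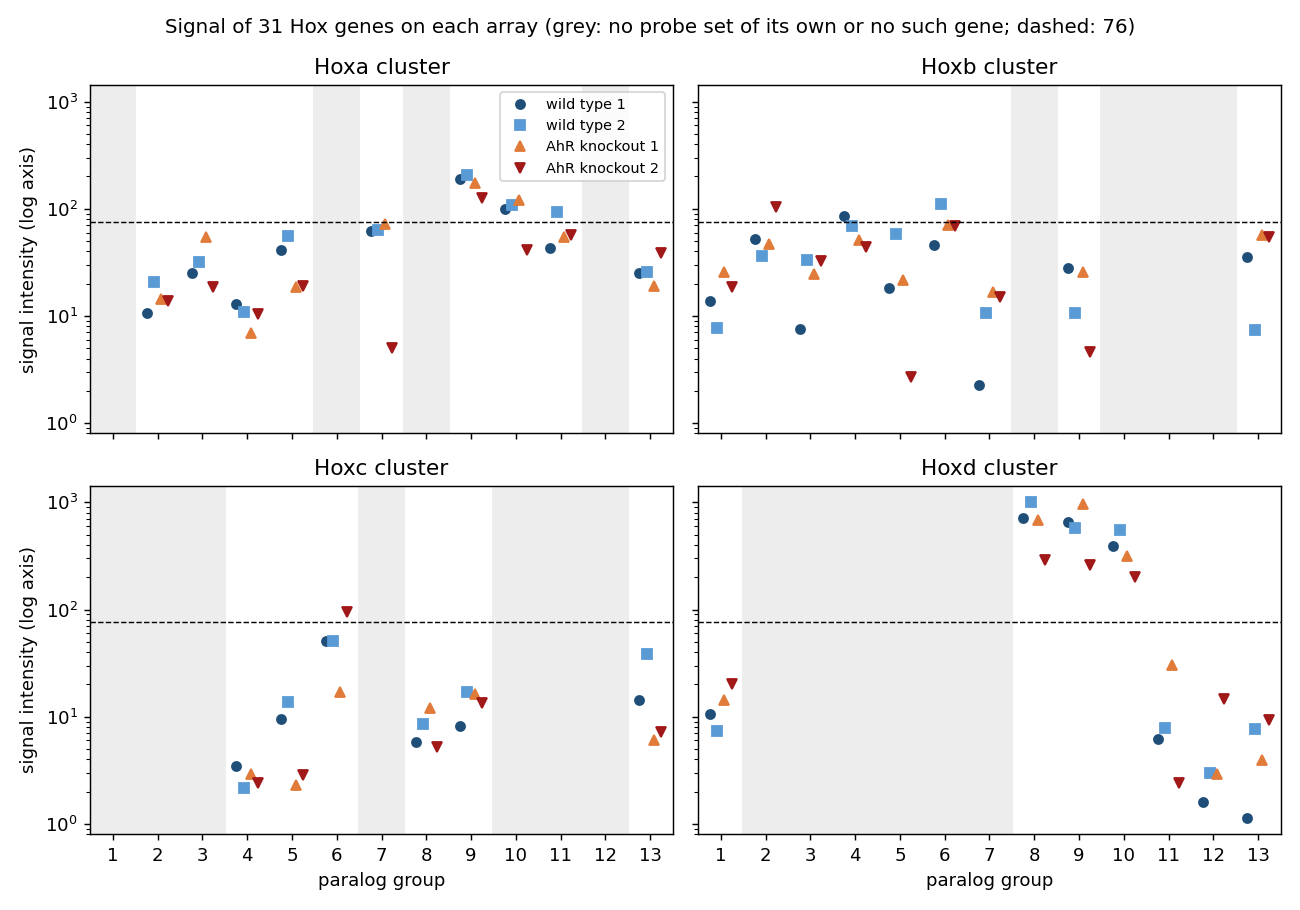
Signal intensity (log axis) of each Hox protein gene on each of the 4 arrays, by cluster and paralog group, with the threshold of 76 as a dashed line. Hoxd8, Hoxd9 and Hoxd10 lie above the line on all 4 arrays, and Hoxd11, Hoxd12 and Hoxd13 lie under it on all 4.

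In the Hoxd cluster on chromosome 2 the genes above the threshold were neighbours. Hoxd8, a trunk patterning gene, read 712 and 1018 on wild-type arrays 1 and 2, against 692 and 290 on knockout arrays 1 and 2. Hoxd9, which acts with its paralogs in the lumbar and sacral region and the limb, read 651 and 576 on the wild-type arrays against 976 and 258 on the knockout arrays. Hoxd10, a regulator of hindlimb motor neurons, read 388 and 556 on the wild-type arrays against 313 and 201 on the knockout arrays. All 3 were far above 76 on every array, including the lowest, AhR knockout 2.

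The next genes of that cluster, toward the tail end, were dim. Hoxd11 read 6.25 and 7.86 on the wild-type arrays against 30.3 and 2.42 on the knockout arrays. Hoxd12 and Hoxd13, which shape digits, stayed between 1.12 and 14.5 on all 4 arrays. At the other end Hoxd1 read between 7.41 and 20.2. Hoxd3 and Hoxd4 share their probe sets. The brighter of these read 8.98 and 16.5 on the wild-type arrays against 25.5 and 38.2 on the knockout arrays.

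In the Hoxa cluster on chromosome 6 the genes above the threshold were also of the central to posterior groups. Hoxa9, known for its role in blood stem cells, read 191 and 205 on the wild-type arrays against 175 and 125 on the knockout arrays. Its dimmer probe set read 69.4 and 73.8 on the wild-type arrays against 177 and 56.2 on the knockout arrays, so both probe sets were lowest in AhR knockout 2, but only the dimmer was highest in AhR knockout 1. Hoxa10, which suppresses rib formation in the lumbar region and patterns the uterus, read 99.4 and 107 on the wild-type arrays against 120 and 41.4 on the knockout arrays.

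Neighbours on both sides fell short of 76. Hoxa11, of kidney and uterus development, read 43.2 and 92.4 in wild type, a mean of 67.8 that was the closest under the threshold, against 54.8 and 56.7 on the knockout arrays. Hoxa7 read 62.6 and 63.4 on the wild-type arrays against 72.7 and 4.98 on the knockout arrays, so it was near the threshold on 3 arrays and far lower in AhR knockout 2. Hoxa5, a lung and skeletal patterning gene, read 40.9 and 55.2 on the wild-type arrays against 18.4 and 18.9 on the knockout arrays. Hoxa2, Hoxa3, Hoxa4 and Hoxa13 had wild-type means between 11.9 and 28.4. Hoxa11os, the antisense gene, read 15.3 and 33.5 on the wild-type arrays against 28.2 and 31.9 on the knockout arrays. Whether its probe set reads antisense RNA alone was not analysed here.

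The Hoxb genes above the threshold lay just inside it. Hoxb4, known to expand blood stem cells, read 85.3 and 68.3 on the wild-type arrays against 51.4 and 43.9 on the knockout arrays. Its wild-type mean of 76.8 was the lowest of the 7. The dimmer Hoxb4 probe set went the other way, with 27.03 and 24.3 on the wild-type arrays against 48.9 and 34.0 on the knockout arrays. Hoxb6, a gene of the lateral body wall and limb bud, read 46.2 and 109.7 on the wild-type arrays, a mean of 78.0, against 70.9 and 68.8 on the knockout arrays. Neither gene was above 76 on both wild-type arrays, which 5 of the 7 were. In knockout 5 protein genes had a mean above 76, the 2 of Hoxa and the 3 of Hoxd, where 60.5% of all measured genes did.

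A probe set shared by Hoxb7 and Hoxb8, left out because it names both genes, read 176 and 210 on the wild-type arrays against 123 and 253 on the knockout arrays. Hoxb7 by its own probe set read between 2.24 and 16.6, so the shared probe set cannot be assigned from Hoxb7 alone. Hoxb2, a hindbrain gene, read 52.4 and 36.5 on the wild-type arrays against 46.5 and 103.9 on the knockout arrays. Hoxb1, Hoxb3, Hoxb5 and Hoxb9 had wild-type means between 10.7 and 38.1.

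By paralog group, 5 of the 8 measured genes of groups 8 to 10 exceeded 76 in wild type, with Hoxc8, Hoxc9 and Hoxb9 as the others, a share near the 60% of all measured genes above that level. The range 8 to 10 spans the Hoxa and Hoxd genes named above as exceeding 76, so its share is no separate result. Both measured genes of group 10 did, and 2 of 4 in group 9. In groups 4 to 8, 3 of 12 did (Hoxd8 belongs to both ranges), and in groups 1 to 3, 0 of 6. In groups 11 to 13, 0 of 7 did, and the wild-type means there ran from 2.27 to 67.8.

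The group used at the tail tip was dim throughout. All 4 genes of group 13 were measured, and none exceeded 57.1 on any array. Hoxb13, which limits growth of the tail in the embryo, read 35.8 and 7.43 on the wild-type arrays against 57.1 and 54.2 on the knockout arrays. Hoxc13, a regulator of hair and nail keratins, read 14.5 and 38.9 on the wild-type arrays against 6.11 and 7.26 on the knockout arrays. Hoxa13 read between 18.9 and 38.7 and Hoxd13 between 1.12 and 9.40. Group 13 therefore gave no signal above the threshold in cells labelled as coming from tail skin. The remaining Hoxc genes, Hoxc4, Hoxc5, Hoxc6, Hoxc8 and Hoxc9, had wild-type means between 2.83 and 50.7. Hoxc6, at the upper end, has 3 probe sets that disagreed. The brightest, whose name marks possible cross-binding, read 51.0 and 50.4 on the wild-type arrays against 16.9 and 94.3 on the knockout arrays, while both others were higher in knockout than in wild type.

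The genotype and the arrays were checked by other genes. Cyp1b1, a known AhR target, fell by 5.27 on the log2 scale in limma with adjusted p = 0.000454, and both knockout arrays were low. Ahr itself read 825 and 874 on the wild-type arrays against 241 and 843 on the knockout arrays, and whether its probe set lies in the deleted exon was not analysed here. All 9 measured melanocyte markers were above 76 in wild type. The 3' to 5' ratio of the Gapdh control probe sets, which rises when RNA is shortened, was 1.98 to 2.85 on 3 arrays and 11.9 in AhR knockout 2, and that of actin was 6.999 to 8.71 and 28.0. AhR knockout 2 therefore stands apart, and values without it are given beside the main ones.

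The knockout was then compared with wild type for every gene in the top 60% by mean signal, 7436 in all, on the scale log2(signal + 16), with limma and Benjamini-Hochberg adjustment. Of these, 71 genes (0.955%) passed an adjusted p of 0.05, 15 of them higher (0.202%) and 56 lower (0.753%). Of the 32 Hox members, 5 passed the filter on low signal, Hoxa9, Hoxa10, Hoxd8, Hoxd9 and Hoxd10, and 27 did not. Of the 5 tested, 0 passed in either direction by limma, and 0 had an unadjusted p under 0.05, which 20.6% of tested genes had. All 5 differences were below 0, as were 49.7% over all tested genes. The median difference of the 5 was -0.43, against 0.0055 over all tested genes.

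Hoxd8 had the largest of these differences, -0.90 ± 0.46 (SE, n = 2 against 2), with a 95% interval from -1.93 to 0.13 and adjusted p = 0.30 in limma. Both knockout arrays were under both wild-type arrays, AhR knockout 1 by a narrow margin of 692 against 712. Hoxd10 differed by -0.85 ± 0.39, with an interval from -1.72 to 0.027 and adjusted p = 0.25 in limma, and its groups did not overlap either. Hoxd9 differed by -0.27 ± 0.55, with an interval from -1.50 to 0.96 and adjusted p = 0.80 in limma. The Hoxd9 groups overlapped, with the knockout arrays at the highest and the lowest of the 4 values. Its mean signal was 613 in wild type and 617 in knockout, so the linear and log2 scales differ in sign for this gene. These intervals reach to falls of more than 1 on the log2 scale, so the data show neither a change nor its absence.

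The differences of the Hoxa genes lay between that of Hoxd9 and those of Hoxd8 and Hoxd10. Hoxa9 differed by -0.38 ± 0.36, with an interval from -1.19 to 0.43 and adjusted p = 0.56 in limma, and both knockout arrays lay under both wild-type arrays. With its 2 probe sets averaged, Hoxa9 differed by -0.076, since the dimmer was higher in knockout by its mean (116 against 71.6). Hoxa10 differed by -0.43 ± 0.45, with an interval from -1.45 to 0.58 and adjusted p = 0.60 in limma, and its groups overlapped. Of the 5 tested genes, 3 had both knockout arrays lower and 0 had both higher, against 26.7% and 28.7% of all tested genes.

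**Figure D2:**
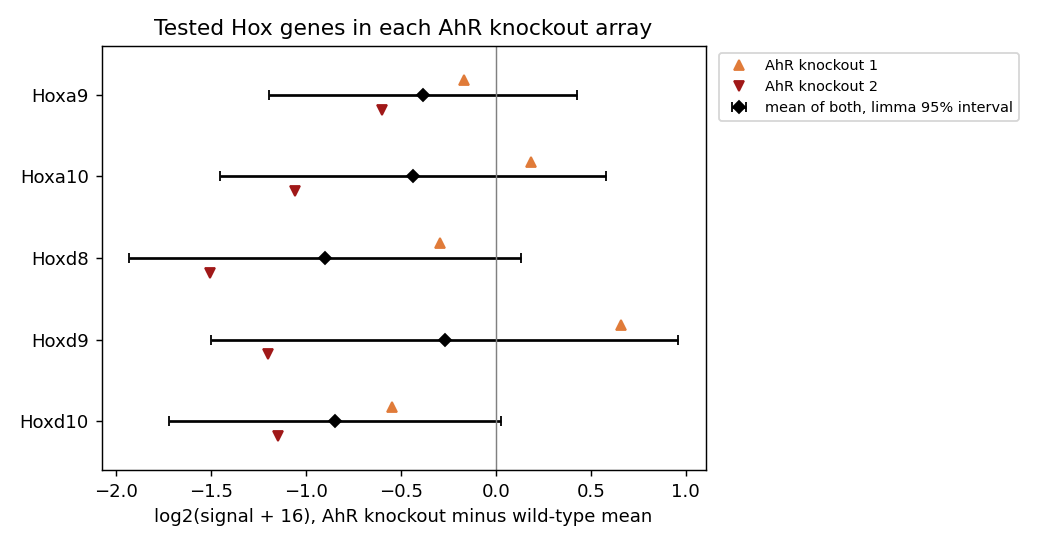
Difference from the wild-type mean on the log2(signal + 16) scale for the 5 tested Hox genes, with each AhR knockout array as a triangle and the limma mean of both with its 95% interval as a diamond. Every interval includes 0, and AhR knockout 2 lies left of AhR knockout 1 for each gene.

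For 4 of the 5 genes, all but Hoxd10, the gap between the 2 knockout arrays was wider than the mean difference from wild type. In AhR knockout 2 the differences from the wild-type mean were -1.51 for Hoxd8, -1.20 for Hoxd9, -1.15 for Hoxd10, -0.60 for Hoxa9 and -1.06 for Hoxa10. In AhR knockout 1 they were -0.29, 0.66, -0.54, -0.17 and 0.19 in the same order. AhR knockout 2 was the lowest of the 4 arrays for 5 of the 5 genes, and for 30.4% of all tested genes. The gap between the 2 knockout arrays was 1.21 for Hoxd8, 1.86 for Hoxd9 and 0.61 for Hoxd10, against a median of 0.46 over all tested genes. The gap between the wild-type arrays was 0.51, 0.17 and 0.50 for the same genes, against a median of 0.32.

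A call on the Hoxd genes depended on which knockout array was kept. Without AhR knockout 1, limma called Hoxd8, Hoxd9 and Hoxd10 lower, with adjusted p = 0.0066, 0.035 and 0.043, in a setting where 18.3% of all tested genes were called and 11.1% were called lower. Without AhR knockout 2, 0 Hox genes were called, where 13.9% of all tested genes were called and 10.8% were called lower, and without wild type 1 or wild type 2 again 0, where 2.04% and 0.269% were. With AhR knockout 2 left out, Hoxd8 and Hoxd10 differed by -0.29 and -0.54, and Hoxd9 and Hoxa10 turned to 0.66 and 0.19. The 3' to 5' control ratios were highest in AhR knockout 2, and the part of RNA quality in its Hox signals was not tested.

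Markers of blood vessel cells, which are also known to use Hox genes, were lowest in the same array. All 9 tested endothelial markers were lower in knockout and lowest in AhR knockout 2, where 49.7% and 30.4% of all tested genes were. Of the 9, 1 (Sox17) passed the limma test, where 0.753% of all tested genes passed as lower. The summed signal of the 10 measured endothelial markers was 20921 and 23133 for wild type 1 and 2, and 13179 and 4352 for AhR knockout 1 and 2. Emcn and Egfl7 made up most of each sum. Egfl7 read 6174 and 5177 on the wild-type arrays against 6263 and 2339 on the knockout arrays, so it was not lower in AhR knockout 1. The summed signal of Hoxd8, Hoxd9 and Hoxd10 was 1751, 2150, 1981 and 748 in the same order. In AhR knockout 1 the endothelial sum, Hoxd8 and Hoxd10 were each under both wild-type arrays, and Hoxd9 was above both. In bulk cultures fewer cells of a type and less RNA per cell cannot be told apart. The part of endothelial cells in the Hoxd signals was not tested.

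Markers of other cell types summed to different orders of the arrays. The 10 measured fibroblast markers summed to 3862 and 5769 on the wild-type arrays against 3334 and 3859 on the knockout arrays. Of the 5 tested, 3 were lower and 1 (Col3a1) passed the test. Thy1 and Pdgfrb made up most of each sum and went opposite ways in AhR knockout 2. Thy1 was lowest there at 1363, and Pdgfrb highest at 2131. AhR knockout 2 was the lowest array for 3 of the 5 tested, as for 30.4% of all tested genes. Keratinocyte markers summed to 571 and 489 for the wild-type arrays, and to 1692 and 442 for AhR knockout 1 and 2, and 7 of the 9 measured were not above 76 in wild type. Leukocyte markers summed to 912 and 1151 on the wild-type arrays against 2986 and 3220 on the knockout arrays, with Lyz2 as most of the sum. Melanocyte markers summed to 71810 and 55760 on the wild-type arrays against 83785 and 108194 on the knockout arrays, a sum carried by bright pigment genes. Of the 9, 7 differed upward and 2 downward with 0 past the limma test. Kit, the receptor melanocytes need for survival, read 1235 and 900 on the wild-type arrays against 558 and 273 on the knockout arrays, and Mitf, their master regulator, 2771 and 2644 against 1668 and 2462. Schwann markers, some of them shared with melanocytes, summed to 7489 and 6775 on the wild-type arrays against 11943 and 15004 on the knockout arrays. The part of these cells in the Hox signals was not tested.

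Of the 27 Hox members under the filter, values in a fit over all 12393 genes serve as description. That fit called 0 Hox genes by limma, where 1 gene in all (0.00807%) was called, and 3 had an unadjusted p under 0.05, which 15.1% of all measured genes had, all lower: Hoxa5, Hoxc5 and Hoxc13. Of all measured genes 8.30% were lower at that p. Hoxa5 differed by -0.88 ± 0.31 on the log2 scale, Hoxc13 by -0.85 ± 0.34 and Hoxc5 by -0.57 ± 0.23, each with an adjusted p of 0.28 to 0.32 in limma. Hoxc5 read 9.44 and 13.8 on the wild-type arrays against 2.30 and 2.88 on the knockout arrays. All 3 had groups that did not overlap, with the knockout arrays within 0.073 of each other. They were named for a small p, which favours such separation and agreement, so neither is a separate result. Over all 32 members, 8 had both knockout arrays lower and 4 had both higher, against 20.7% and 29.4% of all measured genes. Hoxb13 went the other way by 1.04 ± 0.44. From AhR knockout 1 alone the differences were -0.89 for Hoxa5, -0.89 for Hoxc13, -0.59 for Hoxc5 and 1.07 for Hoxb13. At these signals the added 16 shrinks the log2 difference, and the gap between the knockout arrays as well.

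Hox proteins bind DNA with partners of the Pbx, Meis and Pknox families, and Tgif proteins are related repressors. Of 12 listed cofactor genes 11 were measured and 7 tested, of which 3 were higher and 4 lower with a median difference of -0.033, and 0 passed. None of the 7 had an unadjusted limma p under 0.05 either, which 20.6% of all tested genes had. Meis2, a Hox partner in the trunk and limb, read 434 and 464 on the wild-type arrays against 203 and 325 on the knockout arrays, a difference of -0.76 ± 0.38 with adjusted p = 0.28. Tgif1 read 107 and 146 on the wild-type arrays against 83.0 and 44.9 on the knockout arrays, a difference of -0.86 ± 0.40 with adjusted p = 0.26. Pbx2, a broadly expressed partner, read 458 and 420 on the wild-type arrays against 644 and 759 on the knockout arrays, a difference of 0.65 ± 0.36 with adjusted p = 0.32. Meis2, Tgif1 and Pknox1 had both knockout arrays lower and Pbx2 had both higher, against 26.7% and 28.7% of all tested genes. Pknox1 read 101 and 111 on the wild-type arrays against 98.7 and 45.9 on the knockout arrays, close to wild type in AhR knockout 1 and low in AhR knockout 2, with adjusted p = 0.47. Averaged over their probe sets, Pbx2 differed by 0.34 and Pknox1 by -0.26. Without AhR knockout 2 the differences were -1.09 for Meis2, -0.51 for Tgif1, 0.54 for Pbx2 and -0.088 for Pknox1, with a median of -0.088 over the 7. Among cofactors not tested, Meis1, Pbx4 and Pknox2 did not exceed 76 on any array. Meis3 read 34.0 and 36.6 on the wild-type arrays against 62.0 and 99.5 on the knockout arrays. Both its knockout arrays were higher, as for 29.4% of all measured genes. Without AhR knockout 1, Tgif1 differed by -1.21.

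Polycomb complexes keep Hox clusters silent and COMPASS complexes keep them active, so their genes were read from the same fit. Of 44 listed genes 35 were measured and 30 tested, with 11 higher, 19 lower, a median difference of -0.26 and 0 past the limma test. At an unadjusted p under 0.05, 1 was higher and 7 lower, where 7.68% and 12.9% of all tested genes were. The 4 with the smallest p were all lower. Kdm6a, which removes the Polycomb histone mark, read 857 and 1022 on the wild-type arrays against 339 and 275 on the knockout arrays, a difference of -1.57 ± 0.36 with adjusted p = 0.069. Rnf2, the ubiquitin ligase of Polycomb complex 1, read 871 and 1103 on the wild-type arrays against 331 and 335 on the knockout arrays, a difference of -1.51 ± 0.36 with adjusted p = 0.073. Eed, the core subunit of Polycomb complex 2 that binds its own mark, read 1239 and 1275 on the wild-type arrays against 512 and 466 on the knockout arrays, a difference of -1.34 ± 0.36 with adjusted p = 0.095. Aebp2, an accessory subunit of that complex, read 1205 and 1656 on the wild-type arrays against 480 and 755 on the knockout arrays, with adjusted p = 0.14.

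The Kdm6a, Rnf2 and Eed signals were low in both knockout arrays, with AhR knockout 1 and 2 close to each other. Aebp2, named by the same rule, read 480 and 755 there. These genes were named for a small p, which favours knockout arrays that agree. Their agreement therefore gives no contrast with the Hoxd genes, which were low mainly in AhR knockout 2. Without AhR knockout 1 limma called 5 of the 30 tested genes of this list, where 18.3% of all tested genes were called, and without AhR knockout 2 it called 7, where 13.9% were, with Kdm6a, Rnf2 and Eed in both. By group, 6 of 10 tested genes of Polycomb complex 2, 6 of 11 of complex 1 and 6 of 8 COMPASS genes were lower, with medians of -0.45, -0.041 and -0.26. For Polycomb complex 2, AhR knockout 1 gave a median of -0.88 and AhR knockout 2 one of -0.018, the reverse of the order in the Hox genes. Complex 1 and COMPASS ran in the same order as the Hox genes. Their medians in AhR knockout 1 and 2 were 0.125 and -0.119 for complex 1, and 0.066 and -0.22 for COMPASS. Over the whole list they were 0.045 and -0.148.

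**Figure D3:**
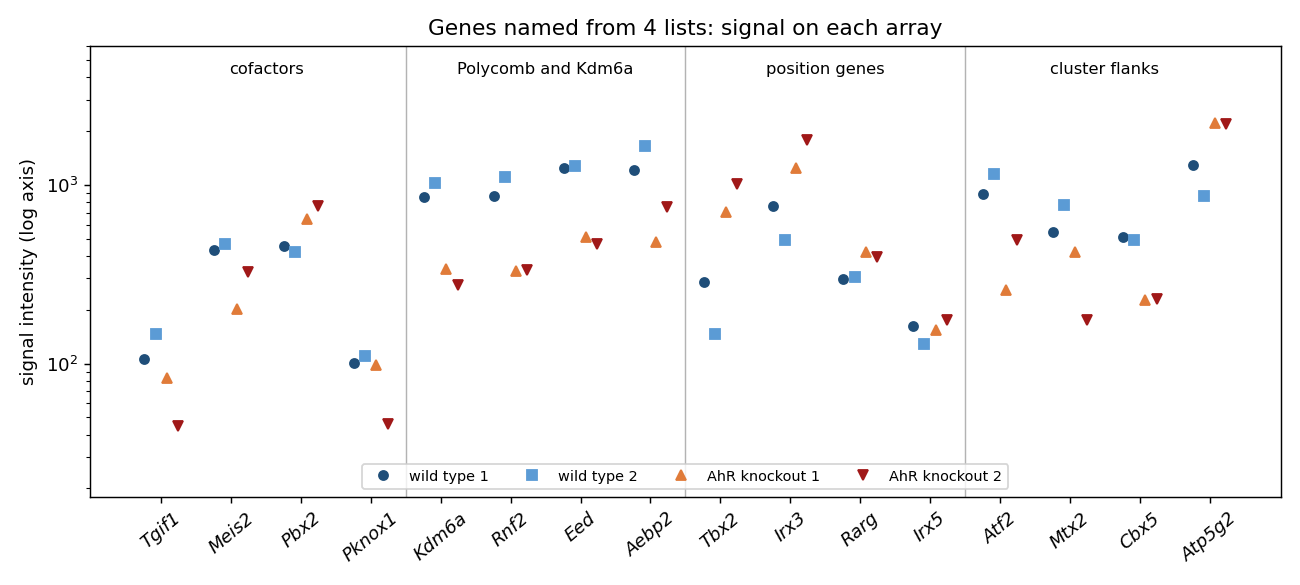
Signal intensity (log axis) on each array for the 16 genes named from the cofactor, Polycomb and COMPASS, position and flanking lists. Kdm6a, Rnf2 and Eed lie lower on both knockout arrays than on both wild-type arrays, and Tbx2 and Irx3 lie higher.

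Other genes that mark position, or act before Hox genes, were mostly dim. Of 60 listed 49 were measured, 44 were not above 76 in wild type and 4 were tested. All 4 were higher, where 3741 of all 7436 tested genes were. In limma 0 passed the test, and 2 were higher at an unadjusted p under 0.05, where 7.68% of all tested genes were. Tbx2, a T-box repressor active in melanocytes and limbs, read 288 and 146 on the wild-type arrays against 708 and 1010 on the knockout arrays, a difference of 1.96 ± 0.42 with adjusted p = 0.061. Irx3, an Iroquois homeobox gene, read 766 and 494 on the wild-type arrays against 1238 and 1788 on the knockout arrays, a difference of 1.25 ± 0.40 with adjusted p = 0.14. Both knockout arrays lay above both wild-type arrays for these genes, as for 28.7% of all tested genes. Tbx2 and Irx3 were named for a small p, which favours such a separation, so it gives no contrast with the Hox genes. Rarg and Irx5 differed by 0.42 and 0.17, with adjusted p = 0.51 and 0.80. Without wild type 1 or wild type 2, Tbx2 differed by 2.41 and 1.51, and without AhR knockout 1 or AhR knockout 2 by 2.21 and 1.71. Irx3 differed by 1.56, 0.94, 1.52 and 0.99 in the same order. Cdx1, Cdx2 and Cdx4, which start posterior Hox genes in the embryo, read between 0.68 and 46.7. The hindlimb genes Pitx1 and Tbx4 read between 5.39 and 65.8, under 76 on all 4 arrays.

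Genes beside the clusters were read from the same fit, and whether a change reaches past the Hox genes was not tested. The 5 measured genes on each side of each cluster made 40 genes, of which 25 were tested, 10 higher and 15 lower, with a median of -0.19 and 0 past the limma test. At an unadjusted p under 0.05, 1 of the 25 was higher and 4 lower, where 7.68% and 12.9% of all tested genes were. The tested flanks of Hoxd had 5 of 6 lower with a median of -0.48, and those of Hoxa had 4 of 5 lower with a median of -0.79. Mtx2, a mitochondrial import gene beside Hoxd1, read 542 and 772 on the wild-type arrays against 424 and 176 on the knockout arrays, a difference of -1.19 ± 0.46 with adjusted p = 0.19. Like the Hoxd genes, and 30.4% of all tested genes, it was lowest in AhR knockout 2. Atf2, a stress-responsive transcription factor on the other side, read 891 and 1146 on the wild-type arrays against 258 and 489 on the knockout arrays, a difference of -1.46 ± 0.41 with adjusted p = 0.11, and was lowest in AhR knockout 1. Evx2, the homeobox gene next to Hoxd13, read 29.9 and 41.3 on the wild-type arrays against 61.8 and 57.9 on the knockout arrays, under 76 on all arrays. Beside Hoxc, Cbx5 differed by -1.08 ± 0.35 and Atp5g2 by 1.05 ± 0.37, with adjusted p = 0.14 and 0.16 in limma. With its probe sets averaged, Cbx5 differed by -0.45 with adjusted p = 0.45. Without AhR knockout 2 the median over the 25 flanking genes was 0.041. By cluster it was -0.77 for the flanks of Hoxa, 0.44 for Hoxb, 0.42 for Hoxc and -0.43 for Hoxd. In that setting Cbx5 and Atp5g2 differed by -1.09 and 1.07, and Mtx2 by -0.59. Without AhR knockout 1 limma called Mtx2 lower, and without AhR knockout 2 it called Atf2 and Tax1bp1, the latter a gene beside Hoxa chosen here after its values were seen.

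**Figure D4:**
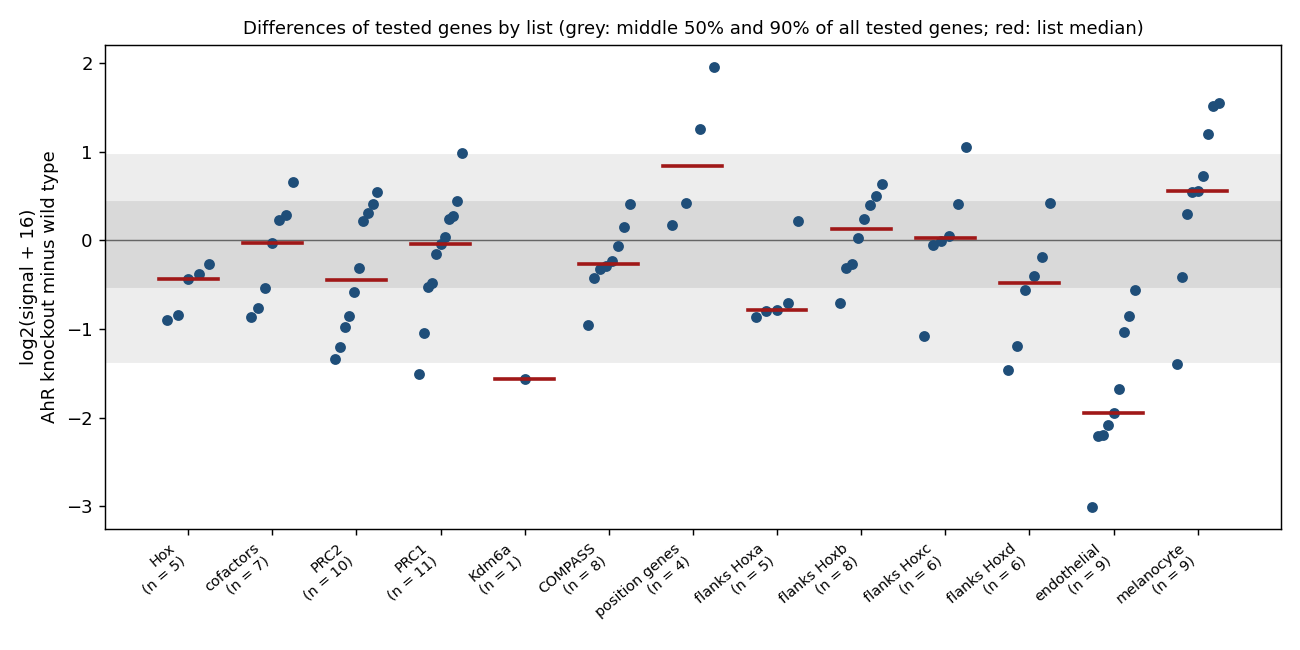
Difference of each tested gene on the log2(signal + 16) scale, AhR knockout minus wild type, by list, with the list median as a red bar and the middle 50% and 90% of all 7436 tested genes in grey. The 5 Hox genes lie between -0.90 and -0.27, and the endothelial markers between -3.00 and -0.56.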

How the data were processed

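Amplified, biotin-labelled RNA of 4 cultures was read on 1-colour Affymetrix arrays. The authors deposited signal intensity on a linear scale. MAS5 is the tool named by the submitters' processing notes, without a version. Trimmed to the middle 96% of probe sets, every array averaged 499.9, so a shift of most transcripts would be divided out. Samples were grouped by title, and all 4 value columns were used.

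Of 22690 probe sets, 20380 had a single symbol, updated by gene ID through RefSeq (GRCm38.p6), which held 20351. Groups were compared with limma 3.58.1 in R 4.3.3 (lmFit, eBayes with trend) on log2(signal + 16), knockout minus wild type. The lowest mean signal tested was 81.1. Strand and isoform of the transcripts were not analysed here. The fit was tested on simulated data with the same noise on all 4 arrays. Such data hold no array that stands apart, so that test does not bear on the Hox differences. Alternatives were other scalings, pseudocounts of 1 and 64, other filters, probe set rules and eBayes options, the title number as a block, other thresholds and each array left out. A filter on mean log2 signal was added after seeing the data.

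Members and lists were chosen with earlier results of these data known. The named genes were all Hox genes and, of each other list, every gene past the threshold and the 4 with the smallest p. Evx2, Pitx1, Tbx4, Meis1, Meis3, Pbx4, Pknox2, the Cdx genes and markers were named beyond that. Promoter windows read on the gene's strand, as checked by TATAAA, which in minus-strand windows lay 323 times just before the start and 100 times at the mirrored place.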

Additional observations from a re-analysis of the deposited data

How the results depend on the processing

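The count of Hox genes above the threshold, 7 at a signal of 76, was 10 at 50, 5 at 100 and 4 at 150, 6 with the mean of probe sets or quantile normalization, 5 with equal array medians, and 6 to 7 when either wild-type array was left out. In limma 0 Hox genes were called under every scaling, pseudocount, filter, probe set rule and eBayes option tried, and 0 to 3 when an array was left out, the 3 being the Hoxd genes without AhR knockout 1. Leaving out each array took Hoxd9 from -1.20 to 0.66 and Hoxa10 from -1.06 to 0.19. With an array left out, the lone array of its group is assumed to vary like the other pair. Over all genes the 71 calls became 24 with quantile normalization, 43 with a pseudocount of 1, 1 with no filter, 20 with the top 40% filter, 30 with every probe set, 20 to 1360 with an array left out, 364 at an adjusted p under 0.10 and 1530 at an unadjusted p under 0.05. Calls with an array left out ranged from 0 to 1 for cofactors, 0 to 7 for Polycomb and COMPASS genes, 0 to 2 for position genes and 0 to 2 for flanking genes. At an adjusted p under 0.10 there were 3, 1 and 0 calls in the last 3 lists, and at an unadjusted p under 0.05 there were 8, 2 and 5. Titles number the mice 1 and 2 in both groups without stating a shared batch, so the arrays share only a number. Deviations of same-numbered arrays correlated at 0.35 across genes, which are not independent. The fit with that number as a block called 1406 genes in all, 0 Hox genes, 0 cofactors, 8 Polycomb and COMPASS genes, 2 position genes and 4 flanking genes. The cause of these changes was not tested.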
